A study of Mus musculus with 12 samples.

Results

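Lysosome and autophagy genes were followed in mouse embryonic stem cells that differed in sphingosine kinase genotype. The set has 35 members, taken from the count table by gene symbol: genes for lysosomal membrane proteins and lipid exporters (7), lysosomal proteases (8), enzymes and activators that degrade sugars, sulfated sugars and glycolipids (10), subunits of the proton pump (3), and autophagy and regulatory proteins (7). All 35 were among the 22753 genes of the deposited count table, and 35 of 35 were among the 15179 genes whose counts were high enough to test. RNA sequencing was done on clones 4 and 10, embryonic stem cell lines from Sphk1 fl/fl Sphk2-/- mice, which carry a conditional allele of one kinase gene and lack the other. Every library, GFP-negative ones included, came from cells grown in serum with LIF and exposed to 6 uM 4-hydroxytamoxifen for 48 hours. Cells sorted as GFP-negative are labelled Sphk1 fl/fl Sphk2-/-, and cells sorted as positive for Cre-GFP are labelled Sphk1-/- Sphk2-/-. There were 3 libraries in each of the 4 groups, and both gates come from the same clones. Replicates 1, 2 and 3 are labelled passages 11, 13 and 15 (GFP-negative) and 11, 14 and 16 (GFP-positive) in clone 4, and 11, 17 and 19 and 12, 18 and 20 in clone 10, so a replicate is also a passage. The labels do not say whether replicates were separate cultures or sorts, so a p-value here reflects only how these libraries scatter, of which a part may be technical. The labelled loss of Sphk1, carrying Cre-GFP and being sorted as GFP-positive go together, so their effects cannot be told apart. Of the 6 GFP-positive libraries, 5 are labelled 1 passage beyond their GFP-negative partner.

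Lysosomes are acidic organelles in which hydrolases break down proteins, sugars and lipids delivered by endocytosis and autophagy. The vacuolar proton pump acidifies them, LAMP proteins line their membrane, and NPC2 and NPC1 hand cholesterol out of them. Sphingolipids are degraded there to sphingosine, the substrate of the sphingosine kinases. TFEB, a basic helix-loop-helix factor held in the cytoplasm by mTORC1 signalling, binds an E-box that is enriched near the start sites of lysosomal genes, known as the CLEAR element.

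The promoters are shown because that element is what many of these genes are known to share. Whether the list was drawn from genes known for it is not given in the sources used here. The shares below therefore describe the list and are no test, and the background was not matched in level or base composition. RefSeq promoters on build GRCm38.p6 were matched by symbol for 30 of the 35 members, and the 250 bases before each start site were searched. The letters CACGTG, which read the same on both strands, occurred in 11 of the 30 genes (36.7%), against 1854 of the 27025 genes with a promoter of this length (6.86%). The longer TCACGTGA, also a palindrome and containing the shorter motif, occurred in 4 of the 30 (13.3%) against 245 of 27025 (0.907%). The 4 genes were Ctsa, Ctsd, Gla and Mcoln1, and Lamp1 held the shorter motif 4 times. Their stretches follow, with the matched letters in capitals. A match describes the sequence and does not show that a factor was bound in these cells.
Ctsa, chr2:164833749-164833772, plus strand: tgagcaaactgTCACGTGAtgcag
Ctsd, chr7:142387908-142387937, minus strand: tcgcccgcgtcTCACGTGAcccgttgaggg
Gla, chrX:134601182-134601244, minus strand: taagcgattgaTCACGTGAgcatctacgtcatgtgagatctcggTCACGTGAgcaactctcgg
Mcoln1, chr8:3500462-3500491, plus strand: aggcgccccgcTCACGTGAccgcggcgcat
Lamp1, chr8:13159088-13159160, plus strand: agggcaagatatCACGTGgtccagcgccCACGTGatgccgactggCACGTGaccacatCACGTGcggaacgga

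The other genes with the shorter motif were Ctsf, Ctsl, Glb1, Gaa, Naglu and Sgsh. Within pairs, the 11 genes with CACGTG had a median log2 fold change of -0.04 in clone 4 and 0.16 in clone 10, and the 19 without it had -0.18 and 0.06. These medians are descriptions of overlapping spreads, from -0.41 to 0.02 with the motif and -0.43 to 0.65 without it in clone 4.

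Library totals ranged from 12968916 to 34258395 counts, with the lowest in clone 10 GFP-negative replicate 1. Mitochondrial genes took 0.143% to 2.32% of the counts, again lowest in that library. Markers of pluripotent cells were abundant, with 15 of 15 tested and a summed level of 6226 to 15777 CPM, where CPM is the count scaled to the effective library size of TMM normalization. Sphk1 stood at 0.730 to 4.17 CPM and Sphk2 at 1.16 to 8.95 CPM. The log2 fold change of Sphk1 in GFP-positive cells over both clones was -0.63 (95% confidence interval -1.62 to 0.37) across all libraries and -0.61 (-1.17 to -0.05, adjusted p = 0.166) within pairs, so it was not called in either fit. Gene totals can include exons outside a deleted part, so these levels do not check the genotype labels. GFP gates were compared across all libraries and also within the 6 pairs that share clone and replicate number.

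Every member was detected in every library, with a lowest count of 15 for Sgsh, the sulfamidase of heparan sulfate breakdown, in clone 10 GFP-negative replicate 1. Levels per exon length, in RPKM, are given as medians over the 12 libraries. RPKM is CPM divided by the merged length of all annotated exons of a gene, in kilobases. That length can exceed the main transcript, so the order of genes depends on it. For example, Ctsl had a median of 248 CPM and 38.2 RPKM, and Ctsz 131 CPM and 90.8 RPKM. Lamp1, the main glycoprotein of the lysosomal membrane, was highest at 275 RPKM. Psap, the precursor of the saposins that present sphingolipids to their hydrolases, followed at 252 RPKM and Ctsd, the aspartic protease cathepsin D, at 249 RPKM. Their ranges over the libraries, 199 to 499, 140 to 323 and 174 to 325 RPKM, overlapped, so these 3 neighbours cannot be ordered.

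**Figure D1:**
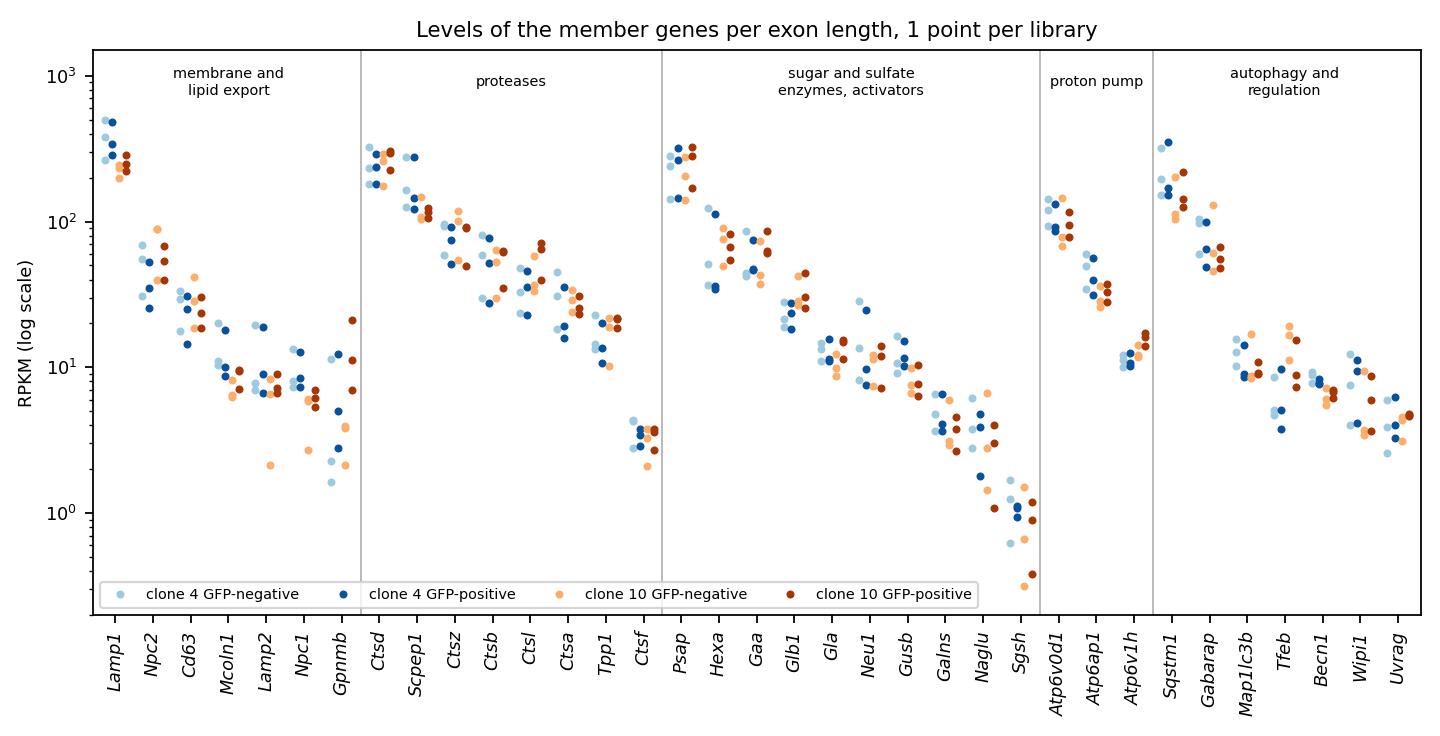
RPKM on a log axis for each of the 35 genes, grouped by role and ordered by median, with 1 point for each of the 12 libraries coloured by group. Lamp1, Psap and Ctsd stand highest, Sgsh lowest, and the 4 groups overlap for most genes.

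Among membrane and lipid-export genes, Npc2, the soluble cholesterol carrier, stood at 53.3 RPKM and the tetraspanin gene Cd63 at 26.8. The calcium channel gene Mcoln1 stood at 9.48 RPKM, Lamp2 at 7.53, the cholesterol exporter gene Npc1 at 7.14 and the glycoprotein gene Gpnmb at 4.50. The lowest Lamp1 library, at 199 RPKM, stood above the highest library of any other gene of this group, 89.1 RPKM for Npc2.
Among proteases, Scpep1, a serine carboxypeptidase, stood at 125 RPKM, the cathepsin genes Ctsz, Ctsb, Ctsl and Ctsa at 90.8, 56.1, 38.2 and 27.3, the tripeptidyl peptidase gene Tpp1 at 18.7 and Ctsf at 3.51.
Among enzymes of sugar and glycolipid breakdown, the beta-hexosaminidase subunit gene Hexa stood at 60.9 RPKM and the acid alpha-glucosidase gene Gaa at 53.7. The beta-galactosidase gene Glb1 stood at 27.3, the alpha-galactosidase gene Gla at 11.9, the sialidase gene Neu1 at 11.6 and the beta-glucuronidase gene Gusb at 10.1. The 3 lowest, all for breakdown of sulfated sugar chains, were Galns at 3.94, Naglu at 3.39 and Sgsh at 1.01 RPKM.
The proton-pump genes Atp6v0d1, Atp6ap1 and Atp6v1h stood at 94.4, 35.3 and 12.2 RPKM. Of the autophagy genes, Sqstm1, which encodes the cargo receptor p62, stood at 161 RPKM and Gabarap, of the ATG8 family, at 62.4. Map1lc3b, the LC3B gene of the same family, stood at 9.61, Tfeb at 8.71, Becn1 of the class III PI3-kinase complex at 7.47, the phosphoinositide-binding Wipi1 at 6.78 and the Beclin partner gene Uvrag at 4.44. Counts of 12 members may be too high or too low where exons of another counted gene overlap theirs. The strand setting of the counting is not given in the sources used here. These members are Lamp1, Ctsa, Ctsb, Ctsz, Hexa, Glb1, Sgsh, Npc1, Atp6v1h, Sqstm1, Map1lc3b and Becn1.

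Between the lowest and highest library, members differed by a factor of 1.69 (Becn1) to 12.8 (Gpnmb), with a median of 2.67. The standard deviation of log2 CPM within groups had a median of 0.46 over the members, the same as over all genes tested (0.46). Becn1 and Atp6v1h varied least, at 0.13 and 0.15, which put them at percentiles 1.38 and 2.31 of all genes tested. Gpnmb varied most, at 1.03, which is percentile 91.7. The members stood higher than the background, at a mean log2 CPM of 6.08 to 7.07 per library against 3.88 to 4.13 over all genes tested. Neither the medians nor the percentiles thus compare genes of like level.

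Most members varied together by library, with like counts in both libraries of a pair except in replicate 1 of clone 10. In clone 4 replicate 2, 34 of the 35 members in GFP-negative cells and 33 of 35 in GFP-positive cells lay above the mean of their own group. In clone 4 replicate 3, 5 and 4 of 35 did. The deviations of a gene cancel within its group, so a high replicate puts others below the mean by construction. In clone 10, replicate 2 had 6 and 4 members above the group mean and replicate 3 had 29 and 27. Replicate 1 was between these, with 14 and 9 in clone 4 and 17 and 26 in clone 10. Over all genes tested, 46.5% to 52.5% lay above the group mean in each of the 12 libraries, a share that TMM scaling itself holds near the middle. The mean deviation of the members was 0.50 and 0.48 on the log2 scale in clone 4 replicate 2 (GFP-negative and GFP-positive), -0.14 and -0.13 in its replicate 1, -0.36 and -0.35 in its replicate 3. In clone 10 it was -0.27 and -0.29 in replicate 2, 0.30 and 0.19 in replicate 3, and -0.03 and 0.10 in replicate 1, where the gates differed in sign. Over all genes tested, clone 4 replicate 2 deviated together with clone 10 replicate 3 (correlations 0.387 to 0.530). Clone 4 replicate 3 did so with clone 10 replicate 2 (0.540 to 0.683), and replicate 1 of both clones with each other (0.399 to 0.588). The members' rises and falls are thus not independent between the clones.

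**Figure D2:**
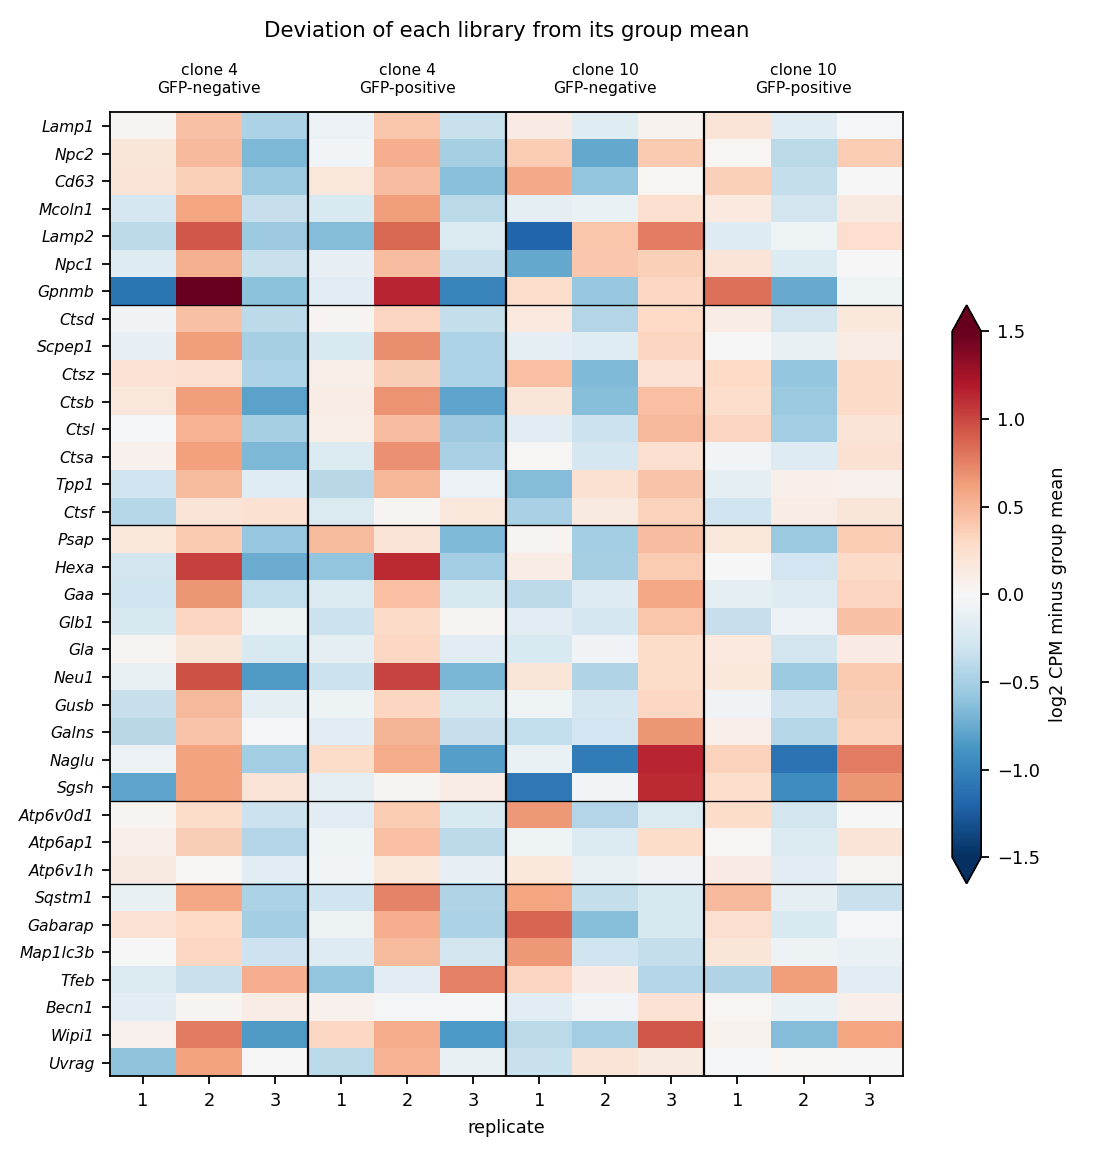
Heat map of log2 CPM minus the mean of the library's own group, for 35 genes (rows, by role) and 12 libraries (columns, by group and replicate). Clone 4 replicate 2 is red for nearly all genes in both gates and clone 4 replicate 3 blue, while Tfeb runs the other way and Becn1 and Atp6v1h stay pale.

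The roles shared the pattern to different degrees. All 7 membrane and lipid-export genes, all 8 proteases and all 10 sugar and sulfate enzymes or activators were above their group mean in both libraries of clone 4 replicate 2, and in clone 10 replicate 2 those above it were 2, 2 and 0 in GFP-negative and 0, 2 and 0 in GFP-positive cells. In clone 10 replicate 3, the proteases and the sugar and sulfate enzymes were above it in 8 of 8 and 10 of 10 cases in both gates, but the autophagy and regulatory genes in only 3 of 7 GFP-negative and 2 of 7 GFP-positive cases. Scpep1, Mcoln1 and Galns had the sign of the members' median in 12 of 12 libraries.

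Tfeb ran against the other members. It shared the sign of their median in 2 of 12 libraries. In clone 4, Tfeb stood at 28.8, 26.5 and 48.5 CPM in GFP-negative replicates 1 to 3 and at 21.4, 28.8 and 54.9 CPM in GFP-positive ones. In clone 10 it stood at 109, 94.7 and 64.0 CPM in GFP-negative and 41.2, 87.0 and 50.2 CPM in GFP-positive replicates. It was thus highest within clone 4 in replicate 3, where most members were low. For Mcoln1, the GFP-negative and GFP-positive values of clone 4 were 83.8, 151 and 78.8 CPM and 75.3, 136 and 66.3 CPM, with the high value in replicate 2 both times.

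Genes outside the set were read from lists of related pathways and of other cell types. Of 50 other lysosomal genes, 42 and 43 lay above the group mean in clone 4 replicate 2, 11 and 10 in clone 4 replicate 3, and 43 and 43 in clone 10 replicate 3. Of 36 other autophagy genes, 11 to 23 did so in every library, and of 33 tested genes of TFE factors and mTORC1 signalling, 12 to 24. Fibroblast markers also differed between libraries, not always in the direction of the members. Of 22 tested fibroblast markers, 22 and 22 lay above the group mean in clone 4 replicate 2, 0 and 5 in its replicate 1, and 11 and 13 in its replicate 3. In clone 10, 0 and 6 did in replicate 1, 15 and 5 in replicate 2 and 22 and 21 in replicate 3. In the GFP-negative library of replicate 2, 15 of 22 markers were thus high where 6 of 35 members were. Their summed level ranged from 1879 to 3438 CPM in clone 4 GFP-negative and 1675 to 2385 CPM in clone 4 GFP-positive libraries. In clone 10 it ranged from 1424 to 4274 CPM in GFP-negative and 1795 to 2787 CPM in GFP-positive libraries. Of the 23 markers in the table, 0 or 1 were at 0. The largest parts of the sum were Fn1 and Sparc, with medians of 916 and 625 CPM, followed by Vim at 235. The other markers had medians of at most 53.8 CPM (Col5a1), so the sum does not measure a share of fibroblasts. The pairs in which most members were low, clone 4 replicate 3 and clone 10 replicate 2, also had the largest mitochondrial shares, 1.43% and 2.21% and 2.11% and 2.32%, against 0.143% to 1.22% in the rest. The same libraries were the deepest, with 24710535 and 34258395 and 32614087 and 33215399 counts, against 12968916 to 21935860 in the rest. The part of fibroblast RNA, depth or library composition in the members' shift was not tested. Fewer cells of a type and less RNA per cell cannot be told apart in these bulk libraries.

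The first comparison asked which members differed between GFP-positive cells, labelled null for both kinases, and GFP-negative cells of clone 4. Across all libraries, 0 of 35 members were called at an adjusted p under 0.05, where the share of all genes called was 0%, and 0 had an unadjusted p under 0.05 (edgeR quasi-likelihood test, Benjamini-Hochberg adjustment over 15179 genes, here and throughout). Within pairs 0 of 35 were called, against 0.119% of all genes, and 2 (5.71%) had an unadjusted p under 0.05, against 1126 of 15179 genes (7.42%). DESeq2 called 0 of 35 with and without the pairs. The members' median log2 fold change was -0.08 within pairs, with 26 of 35 below 0, against a median of 0.00 for all genes. By role, 8 of 8 proteases and 3 of 3 proton-pump genes had values below 0, with medians of -0.14 and -0.18. Across all libraries the highest values of these 2 roles were -0.0066 and -0.0027, so some lay next to 0. There, 5 of 7 membrane and lipid-export genes, 7 of 10 sugar and sulfate enzymes or activators and 3 of 7 autophagy and regulatory genes were below 0. None of these passed the test. Fibroblast markers leaned the same way, with 19 of 22 tested below 0 in clone 4 within pairs, a median of -1.30, 2 that fell (Postn and S100a4) and 14 at an unadjusted p under 0.05. Over both clones 20 of 22 were below 0 and 7 fell. Their part in the members' values was not tested.

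Ctsa, which encodes the carboxypeptidase that also protects the sialidase and beta-galactosidase, stood at 145, 212 and 86.6 CPM in GFP-negative and 90.8, 168 and 74.7 CPM in GFP-positive replicates 1 to 3 of clone 4. It was lower in each of the 3 pairs, but the groups overlapped, and the log2 fold change within pairs was -0.41 (SE 0.12, adjusted p = 0.453). Npc2 stood at 302, 375 and 168 CPM in GFP-negative and 191, 289 and 139 CPM in GFP-positive replicates, again lower in 3 of 3 pairs with overlapping groups (log2 -0.43, SE 0.15, adjusted p = 0.579). Neu1, the sialidase that CTSA stabilizes, gave 50.9, 106 and 30.5 CPM against 36.5, 92.2 and 28.3 CPM (log2 -0.26, SE 0.13, adjusted p = 0.678). In each of these genes the replicates were spread more widely than the gates were apart. No member had GFP-positive and GFP-negative libraries of clone 4 that did not overlap, which 3.75% of all genes had.

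The second comparison asked the same of clone 10, and here Gpnmb (ENSMUSG00000029816, mm10 chromosome 6, 49036518 to 49058182) rose within pairs. GPNMB is a type I transmembrane glycoprotein of melanosomes, lysosomes and the cell surface, and its gene is known to be induced by the MiT/TFE factors when lysosomes are under stress. In clone 10, Gpnmb stood at 24.9, 14.0 and 25.9 CPM in GFP-negative and at 136, 45.4 and 73.4 CPM in GFP-positive replicates 1 to 3. The lowest GFP-positive library lay above the highest GFP-negative one, and replicate 1 had the widest gap. Within pairs the log2 fold change was 1.88 (SE 0.30, 95% confidence interval 1.21 to 2.55, adjusted p = 0.0127). Across all libraries it was 1.98 (SE 0.74, interval 0.37 to 3.60) with an adjusted p of 0.529, so it did not pass there. The call within pairs held in 6 of 6 fits that left out 1 pair of either clone, at 1.60 to 2.07 (adjusted p 0.00435 to 0.0496). The fits without a clone 4 pair kept all clone 10 libraries, so only those without a clone 10 pair bear on its dependence on 1 pair. Gpnmb was the only member of 35 called within pairs in clone 10, where 4.22% of all genes were called. Across all libraries 0 of 35 members were called, and the share over all genes was 0%, with 1 member, Gpnmb, at an unadjusted p under 0.05, against 7.45% of all genes. In the authors' deposited table for clone 10, Gpnmb was also the single member with an adjusted p under 0.05 (authors' log2 fold change 1.49, authors' SE 0.36, authors' adjusted p = 0.00240) of the 34 members that have one, Map1lc3b having none. Of the 15479 genes with an adjusted p in the authors' deposited table, 418 were under 0.05 (2.7%).

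**Figure D3:**
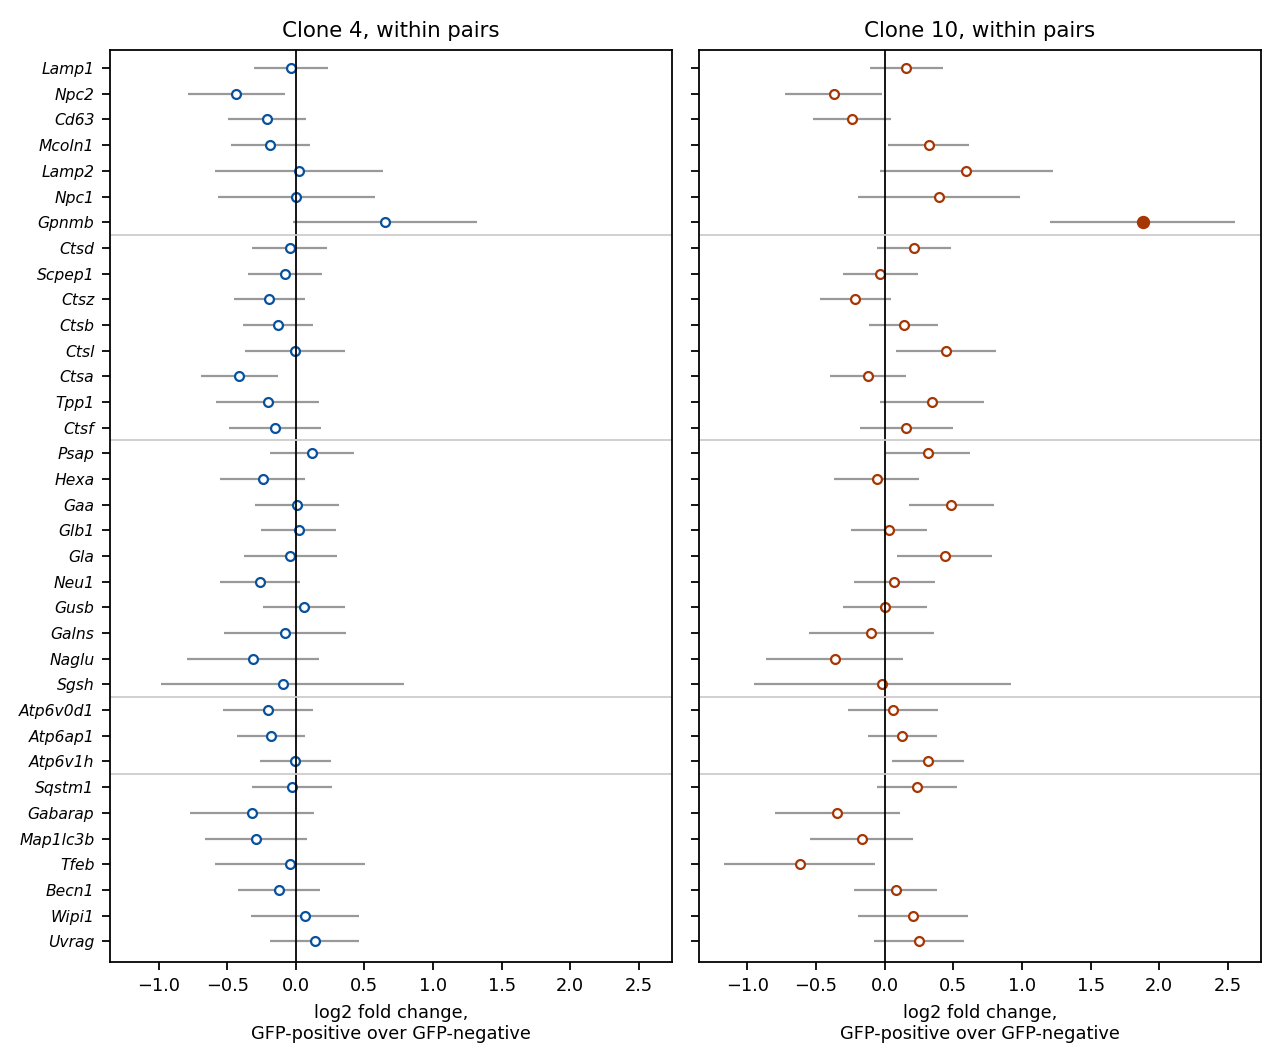
Log2 fold change of GFP-positive over GFP-negative cells within pairs for the 35 genes, in clone 4 (left) and clone 10 (right), with 95% confidence intervals as lines and a filled point where the adjusted p was under 0.05. Gpnmb in clone 10, at 1.88, is the one filled point, and most other intervals include 0.

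In clone 4, Gpnmb stood at 10.7, 74.6 and 14.9 CPM in GFP-negative and 32.7, 80.4 and 18.3 CPM in GFP-positive replicates. It was higher in each of the 3 pairs, by little in replicate 2, which held the highest values of clone 4 in both gates. The log2 fold change within pairs was 0.65 (SE 0.29, interval -0.02 to 1.32, adjusted p = 0.673). The difference of the effect between the clones was 1.23 (SE 0.41, interval 0.29 to 2.17) with an adjusted p of 0.583, so a difference between the clones did not pass the test.
Gpnmb is also known from macrophages, whose markers were scarce. Of 10 markers listed, 9 were in the table and 3 were abundant enough to test. Their summed level was 3.35 to 5.02 CPM in clone 4 GFP-negative, 3.97 to 5.5 in clone 4 GFP-positive, 3.44 to 5.70 in clone 10 GFP-negative and 6.91 to 9.51 CPM in clone 10 GFP-positive libraries, with 1 to 5 of the 9 at 0 in a library. Of the defining ones, Ptprc was at 0 in 6 libraries and at most at 0.159 CPM, Lyz2 at 0 in 8 and at most at 0.134 CPM, and Csf1r reached 0.720 CPM. The 3 tested markers reached 6.33 CPM (Mrc1), 1.88 (Itgam) and 1.67 (Cd14), with a median log2 fold change of 0.95 within pairs in clone 10, 2 of 3 above 0, 0 called and 1, Mrc1, at an unadjusted p under 0.05. The summed level was thus higher in GFP-positive than GFP-negative libraries of clone 10, while Ptprc and Lyz2 were near 0. The 16 markers of the 2-cell-like state moved with the gate as well, at 121 to 274 CPM summed in GFP-negative and 1127 to 4614 CPM in GFP-positive libraries of clone 10. The part of either in the rise of Gpnmb was not tested.

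The other members of clone 10 stayed under the threshold. Their values within pairs were above 0 for 23 of 35 members, Gpnmb included, with a median of 0.13 against -0.01 for all genes, and 9 members (25.7%) had an unadjusted p under 0.05, against 3827 of 15179 genes (25.2%), a share near that of all genes. Gaa, whose enzyme frees glucose from lysosomal glycogen, stood at 179, 206 and 352 CPM in GFP-negative and at 300.2, 289 and 413 CPM in GFP-positive replicates of clone 10, higher in 3 of 3 pairs with overlapping groups (log2 0.49, SE 0.14, adjusted p = 0.0820). DESeq2 with the pairs called it, at an adjusted p of 0.0286. The share of all genes that DESeq2 called is not given, here and below, so its calls have no background beside them. Gla gave 28.3, 32.0 and 39.9 CPM against 49.9, 37.2 and 48.9 CPM, also higher in 3 of 3 pairs (log2 0.44, SE 0.15, adjusted p = 0.131). Ctsl, for cathepsin L, gave 239, 215 and 378 CPM against 461, 256 and 419.8 CPM (log2 0.45, SE 0.16, adjusted p = 0.140). In all 3 genes replicate 1, whose GFP-negative library was the shallowest, had the widest gap. Besides Gpnmb, Uvrag had GFP-positive libraries that lay wholly above the GFP-negative ones, so 2 members did so and 0 lay wholly below, against 15% of all genes in either direction.

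**Figure D4:**
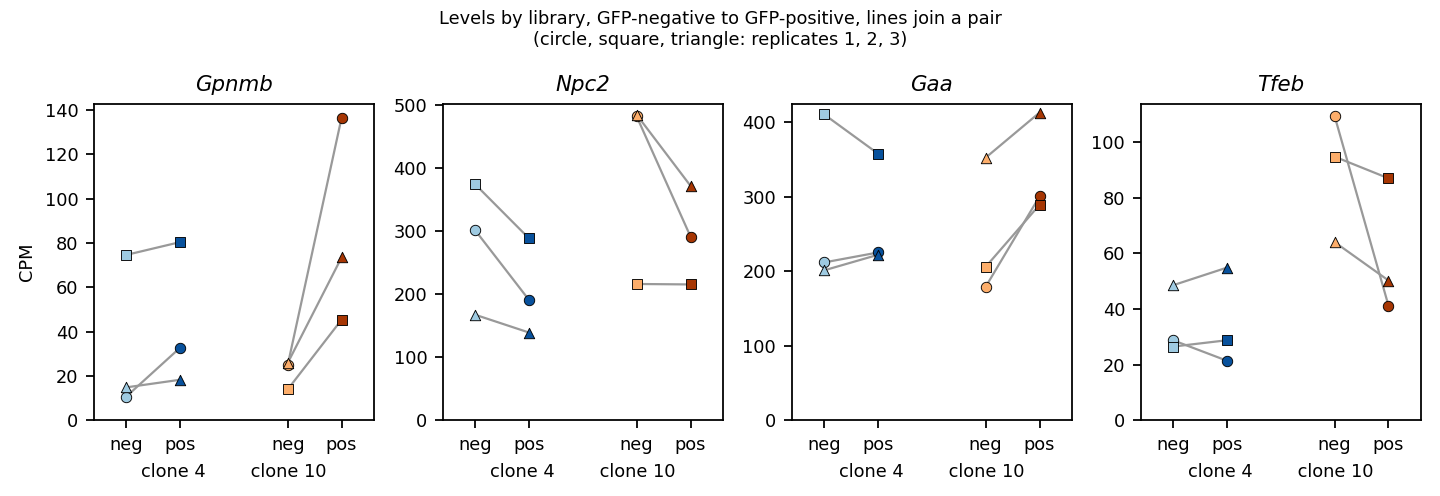
CPM of Gpnmb, Npc2, Gaa and Tfeb in each library, from GFP-negative (neg) to GFP-positive (pos) within clones 4 and 10, with lines joining libraries of the same replicate number. Gpnmb is higher in GFP-positive cells in 6 of 6 pairs and Npc2 lower in 6 of 6, while Gaa and Tfeb differ in direction between pairs.

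For the mean of both clones, Gpnmb was again the only member called within pairs, at a log2 fold change of 1.27 (SE 0.21, interval 0.79 to 1.74, adjusted p = 0.0171), where 3.36% of all genes were called. Across all libraries it was 1.19 (adjusted p = 0.70), and 0 of 35 members were called against 0.158% of all genes. The median of the members was 0.00 within pairs, with 19 of 35 above 0. Npc2 stood at 482, 216 and 485 CPM in GFP-negative and 291, 216 and 372 CPM in GFP-positive replicates of clone 10, where replicate 2 was nearly level. Over both clones its log2 fold change was -0.40 (SE 0.11, adjusted p = 0.0859, and 0.0209 by DESeq2 with the pairs), that of Ctsa -0.27 (SE 0.09, adjusted p = 0.122) and that of Gaa 0.25 (SE 0.10, adjusted p = 0.157).
By direction alone, 2 members were higher in GFP-positive cells in all 6 pairs, Gpnmb and Uvrag, and 4 were lower in all 6, Npc2, Ctsa, Ctsz and Cd63. Over all genes tested 16% had 1 direction in all 6 pairs, so the share of the members is close to that of other genes. When libraries were scaled by total counts alone, Cd63, Ctsa and Npc2 were higher in 1 of the 3 clone 10 pairs and Uvrag in 2 of the 3 clone 4 pairs, whereas Gpnmb and Ctsz kept their direction in all.

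The effect of the gate was compared between the clones by the interaction of clone and gate. Of the members, 28 of 35 had a higher log2 fold change in clone 10 than in clone 4, with a median difference of 0.20 within pairs, against -0.03 for all genes. Of 35 members 0 were called by edgeR or DESeq2, with or without the pairs, and edgeR called 0% of all genes, while 4 members (11.4%) had an unadjusted p under 0.05 within pairs, against 1167 of 15179 genes (7.69%). After Gpnmb, the named values were Mcoln1 at 0.50 (SE 0.18, adjusted p = 0.606), Gaa at 0.48 (SE 0.19, adjusted p = 0.634) and Tpp1 at 0.55 (SE 0.23, adjusted p = 0.641). Mcoln1 in clone 10 stood at 47.3, 48.4 and 61.5 CPM in GFP-negative and 71.9, 53.6 and 71.3 CPM in GFP-positive replicates, higher in 3 of 3 pairs, and was lower in 3 of 3 pairs of clone 4. Tpp1, which trims tripeptides from proteins in the lysosome, gave 69.1, 119 and 75.1 CPM against 55.3, 104 and 69.6 CPM in clone 4 and 53.0, 97.1 and 112 CPM against 95.7, 112 and 111 CPM in clone 10.

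The clones were then set against each other within each gate. These comparisons share their libraries with those of the gates and have 1 clone on each side, so clone and culture cannot be told apart. In GFP-negative cells 0 of 35 members were called, against 0.0461% of all genes, and 6 (17.1%) had an unadjusted p under 0.05, against 11.9% of all genes. The median of clone 10 over clone 4 was -0.22, with 27 of 35 below 0, against 0.04 for all genes. Without clone 4 GFP-negative replicate 2, in which 34 members were high, the median was 0.0013.
Tfeb had the largest difference in favour of clone 10, with 64.0 to 109 CPM against 26.5 to 48.5 CPM in clone 4, groups that did not overlap (log2 1.37, SE 0.40, adjusted p = 0.228). DESeq2 called Tfeb there, as the only member, at 1.39 with an adjusted p of 0.0433. Lamp1 stood at 657, 533 and 625 CPM in clone 10 against 1014, 1334 and 707 CPM in clone 4, all lower in clone 10 (log2 -0.75, SE 0.28, adjusted p = 0.316). Mcoln1 was also wholly lower, at 47.3 to 61.5 against 78.8 to 151 CPM (log2 -0.998, SE 0.32, adjusted p = 0.264), as was Npc1, at 30.5, 68.6 and 66.3 against 90.7, 149.97 and 82.4 CPM (log2 -0.96, SE 0.34, adjusted p = 0.303). Becn1 was the fourth member wholly below clone 4, and with Tfeb above it 5 of 35 members did not overlap, against 13.8% of all genes.

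In GFP-positive cells 0 of 35 members were called, against 1.11% of all genes, 1 had an unadjusted p under 0.05, against 14.3% of all genes, and DESeq2 called 0. The median was -0.01, with 17 of 35 above 0, against 0.00 for all genes. Atp6v1h, for subunit H of the pump, stood at 167, 137 and 157 CPM in clone 10 against 105, 122 and 99.2 CPM in clone 4, without overlap (log2 0.50, SE 0.18, adjusted p = 0.216). Npc1 and Becn1 were wholly lower in clone 10, so 3 of 35 members did not overlap, against 24.8% of all genes. Ctsl gave 461, 256 and 419.8 against 229.6, 297 and 148 CPM (log2 0.75, SE 0.35, adjusted p = 0.360), Gusb 34.97, 28.9 and 46.8 against 52.7, 69.0 and 46.7 CPM (log2 -0.61, SE 0.28, adjusted p = 0.356) and Lamp1 767, 595 and 666 against 906, 1281 and 765 CPM (log2 -0.54, SE 0.27, adjusted p = 0.405). The clones thus overlapped in these 3 genes, and none passed the test.

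Genes that work beside the members were read from lists of the same pathways. Of 50 other lysosomal genes, 2 rose within pairs in clone 10. They were Man2b1, the lysosomal alpha-mannosidase gene (log2 1.08, SE 0.18, adjusted p = 0.0163), and Idua, whose enzyme removes iduronic acid from glycosaminoglycans (log2 1.29, SE 0.25, adjusted p = 0.0249). For both clones 1 rose, Man2b1 (log2 0.59, SE 0.13, adjusted p = 0.0470), and in clone 4 none did. Of 36 other autophagy genes 1 rose in clone 10, Atg14, a subunit of the class III PI3-kinase complex (log2 1.02, SE 0.16, adjusted p = 0.0130), and it also rose over both clones (log2 0.65, SE 0.11, adjusted p = 0.0217). Across all libraries 0 genes of these 2 lists were called. The smallest adjusted p there was 0.368 and 0.249 in clone 10 and 0.683 and 0.283 over both clones, for lysosomal and autophagy genes, and 2 and 1 of them had an unadjusted p under 0.05 in clone 10. Of 15 other proton-pump genes and 33 tested genes of TFE factors and mTORC1 signalling, 0 were called within pairs in clone 4, clone 10 or both, with 4, 8 and 11 of the 33 at an unadjusted p under 0.05, and 0, 4 and 3 of the 15. Of all genes 7.42%, 25.2% and 26.3% were at such a p in these comparisons. The medians of the 4 lists in clone 10 lay between -0.03 and 0.11. Within pairs 4.22% of all genes were called in clone 10 and 3.36% over both clones. The calls in the lists of lysosomal and autophagy genes were thus no more frequent than among all genes.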

How the data were processed

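RNA sequencing of 12 libraries, 3 for each clone and gate, was analysed. The deposited table holds read counts per gene that were not normalized, per the file headers. STAR 2.3.0e, HTSeq 0.6.0, DESeq2, DESeq and mm10 are named in the submitters' processing notes, with neither annotation release nor strand setting, each not given in the sources used here. Tables per clone hold, per the file headers, the counts again, a signal per library and its mean that the authors scaled, and the authors' log2 fold change with its standard error. They also hold the authors' test score and deposited p-values before and after adjustment. Of all count columns, 0 differed between the tables and 0 were left unmapped.

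Counts were tested in R 4.3.3 with edgeR 4.0.16 (robust quasi-likelihood test, TMM, filterByExpr with a minimum of 10 counts and 15 in total). This left 15179 genes and dropped 7574. All 12 libraries entered each fit, with 8 residual degrees of freedom, or 4 with the pair of clone and replicate number as a block (within pairs). P-values were adjusted over all genes tested by the Benjamini-Hochberg method, with a threshold of 0.05. Deviations from group means correlated at 0.548 to 0.822 in the 6 same-numbered pairs of a clone, so the numbers were taken to pair the libraries. Between other numbers of a clone they correlated at -0.541 to -0.228. The deviations of a gene cancel within a group, which makes the other correlations negative where some are positive. The negative values are therefore no further support. Between clones the correlation ran from 0.399 to 0.588 for replicate 1 of both. It ran from 0.387 to 0.530 for clone 4 replicate 2 with clone 10 replicate 3. For clone 4 replicate 3 with clone 10 replicate 2 it ran from 0.540 to 0.683. Every other correlation between clones was negative, from -0.448 to -0.012, which the same centring favours. The comparisons of clones do not model these shared sets. The biological coefficient of variation was 0.389, and 0.175 within pairs. Levels are CPM on effective library sizes, and RPKM uses the merged length of all exons of a gene in GENCODE M21. Where a log2 CPM is given, a prior count of 2 was added. DESeq2 1.42.0, RLE scaling, no filter, passage as a covariate, only the clone's own libraries, the block and leaving out each library or pair were the alternatives.

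The members, roles and lists were chosen with earlier results of these data known. Genes given with a fold change were called ones and up to 4 members by smallest p in each comparison, plus called genes of the lists of other lysosomal and autophagy genes. The steps were tested on simulated data.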

Additional observations from a re-analysis of the deposited data

Results flagged for a closer look

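Mcoln1 and Atp6ap1 were lower in GFP-positive cells in each of the 3 pairs of clone 4 and higher in each of the 3 pairs of clone 10, so every pair of a clone moved one way and every pair of the other clone the opposite way. The difference of the log2 fold change between the clones, clone 10 minus clone 4 within pairs, was 0.504 for Mcoln1 (SE 0.18, edgeR adjusted p = 0.606). It was 0.309 for Atp6ap1 (SE 0.16, adjusted p = 0.659), which encodes an accessory subunit of the proton pump. Neither passed the test of the difference. Both genes were picked from the members for this pattern of directions, and its share among all genes is not given here. The pattern is thus not read as particular to the members.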

How the results depend on the processing

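Counts of called members were 0 or 1 in each main fit. They were the same under 133 of 138 alternatives, mostly as counts of 0 that stayed 0. The members' median changed sign under 16 of 138. Of 552 fold changes of named members, 543 kept their direction and their side of the threshold. With the replicate block, which holds the pairing, the members called went from 0 to 1 in clone 10 and to 1 over both clones, Gpnmb each time (1.88 and 1.27). The block changed no other call of a member. DESeq2 without the block called 1 member in GFP-negative cells of clone 10 against clone 4, Tfeb (1.39). DESeq2 with the block called 2 in clone 10, Gpnmb and Gaa, and 2 over both clones, Gpnmb and Npc2. The share of all genes called by DESeq2 is not given here, so these calls are not read as particular to the members. Without 1 of the 12 libraries at a time, and without the block, the value of Gpnmb in clone 4 ran from -0.388 (without GFP-positive replicate 2) to 1.78 and turned to -0.03 without GFP-negative replicate 1. That of Neu1 in clone 4 ran from -0.947 to 0.364 (without GFP-negative replicate 2) and turned to 0.06 without GFP-positive replicate 3. The causes were not tested. Over the same removals the members' median ran from -0.39 to 0.19 in clone 4, -0.09 to 0.28 in clone 10, -0.14 to 0.42 for their difference and -0.49 to 0.0013 between clones in GFP-negative cells. With the block and without 1 pair it ran from -0.11 to -0.07 in clone 4 and 0.08 to 0.19 in clone 10. Removing a library or pair of the other clone leaves all libraries of a clone's own comparison in place. Depth limits Sgsh most, with 15 counts in its lowest library.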
